A study of Mus musculus with 6 samples.

Results

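AMPA receptors are the glutamate-gated cation channels that carry most fast excitatory transmission in the brain, and the 10 genes described here encode their pore-forming subunits and auxiliary proteins. The pore-forming subunits come from Gria1, Gria2, Gria3 and Gria4, the transmembrane AMPA receptor regulatory proteins (TARPs) from Cacng4, Cacng5, Cacng7 and Cacng8, and the cornichon proteins from Cnih2 and Cnih3. They were taken by exact symbol from the 54884 entries of the deposited gene table. The set was drawn up because Cacng5 was higher in cells given an siRNA against circHIPK2, a circular RNA, than in controls. The values of all 10 members in that comparison are therefore given as a description, without p-values.

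Messenger RNA was sequenced after poly(A) selection from 6 libraries of cultured neural stem cells from the hippocampus of C57BL/6J mouse embryos at day 14, used at passages 3 to 8. In 3 libraries the cells had received an siRNA directed at circHIPK2, which is made from the Hipk2 kinase gene, and in 3 the circCon control siRNA. The level of circHIPK2 itself was not examined here. Some of the labels speak of transfection and the treatment protocol of lentivirus for both siRNAs, so which was used is not settled by the labels. The promoter of the vector, the number of embryos pooled and whether the 3 libraries of a group were separate cultures are not stated in the labels, so the spread between libraries may be technical.

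Each AMPA receptor is an assembly of Gria-encoded subunits around a central pore. The Gria2 product, once its transcript has been edited at the Q/R site, keeps calcium out of the channel. TARPs bind the assembled channel and change its delivery to the surface and its gating. Those of Cacng4 and Cacng8, with Cacng2 (stargazin) and Cacng3, are classed as type I, and those of Cacng5 and Cacng7 as type II. Type I proteins promote delivery and slow the closing of the channel, and the type II proteins differ from them in these effects. Cornichon proteins act in export from the endoplasmic reticulum and also slow the channel. In the brain these genes are known from neurons, and AMPA receptors are also found in oligodendrocyte precursors and astroglia.

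The cells were checked against markers of their label. Sox2 was at 91.4 to 118 FPKM in the siRNA libraries and 82.2 to 116 FPKM in the controls, and Nes at 63.3 to 77.1 and 64.1 to 85.3 FPKM (FPKM scales fragment numbers to transcript length in kilobases and to 1000000 mapped fragments). Of the 10 neural stem cell markers 9 passed the filter of a mean of at least 1 FPKM. With the siRNA 3 of them, Fabp7, Hes1 and Hes5, lay entirely below the controls, and 1, Sox1, entirely above. Over all entries tested, 22.1% lay entirely below and 2.65% entirely above. Markers of oligodendrocyte precursors were abundant: all 7 passed the filter, and Olig1 alone was at 339 to 444 FPKM with the siRNA and 433 to 481 FPKM in the controls. All 7 astrocyte markers passed too, and their sum was 558 to 904 FPKM with the siRNA and 460 to 750 FPKM in the controls. Of 12 neuron markers 6 passed, among them Map2, a microtubule-associated protein gene, at 84.8 to 93.7 FPKM with the siRNA and 106 to 115 FPKM in the controls. Rbfox3, a marker of mature neurons, was below 0.3 FPKM in every library. None of 6 microglia markers passed. The groups also differed in 2 other sets of transcripts. A group of 9 entries around the ribosomal RNA locus, or behaving like it, took 3.24% to 19.9% of all FPKM in the siRNA libraries and 0.321% to 0.58% in the controls. The 7 hepatocyte markers summed to 1.95 to 2.21 FPKM in the siRNA libraries and 33.1 to 54.2 FPKM in the controls. Over the 13702 entries tested the median log2 fold change was −0.12. Once the ribosomal RNA locus entries were removed and the columns rescaled to a sum of 1000000, 15654 entries passed the filter. Their median was 0.06, so the 2 medians are over different sets of entries. The rescaling also raised all values above 0, since the columns summed to 453000 to 483200 FPKM as deposited. The 1 added before log2 and the filter of 1 FPKM therefore weighed less, and the removal alone was not tested. With that removal and rescaling the log2 fold changes were 1.322 for Cacng5, −0.480 for Cacng4, 0.127 for Cacng7 and 0.079 for Cacng8. They were 0.083 for Gria3, 0.223 for Gria4, 0.236 for Cnih2 and −0.086 for Cnih3, and those of Gria1 and Gria2 are given below. Values of the other genes are given as deposited only, and the part of the hepatocyte transcripts was not tested.

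The promoters of Cacng5 and of Cacng7 are shown because these 2 genes encode the type II TARPs, and of the pair Cacng5 was the one that differed between the groups. RefSeq gave promoters (250 bases before to 50 after the start) for 7 of the 10 members, with 2 starts for Cacng5 that lie 3693 bases apart. Capitals mark an AP-1 motif (TGANTCA) or a GC box (GGGCGG, shown as CCGCCC where it lies on the other strand).
Cacng5 upstream start, GRCm38.p6 chr11:107915006-107915305, minus strand: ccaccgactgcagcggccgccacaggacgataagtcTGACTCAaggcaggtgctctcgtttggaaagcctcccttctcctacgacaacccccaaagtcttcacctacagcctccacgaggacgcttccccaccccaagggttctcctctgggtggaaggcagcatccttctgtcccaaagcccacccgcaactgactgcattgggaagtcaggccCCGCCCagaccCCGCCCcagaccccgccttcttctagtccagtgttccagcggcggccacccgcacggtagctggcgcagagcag
Cacng5 downstream start, GRCm38.p6 chr11:107911313-107911612, minus strand: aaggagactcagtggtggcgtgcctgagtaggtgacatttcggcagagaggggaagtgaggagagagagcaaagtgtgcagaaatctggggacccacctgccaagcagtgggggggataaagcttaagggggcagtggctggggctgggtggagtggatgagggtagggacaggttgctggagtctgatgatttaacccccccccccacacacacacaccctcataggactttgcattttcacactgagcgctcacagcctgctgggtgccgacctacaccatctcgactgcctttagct
Cacng7, GRCm38.p6 chr7:3332575-3332874, plus strand: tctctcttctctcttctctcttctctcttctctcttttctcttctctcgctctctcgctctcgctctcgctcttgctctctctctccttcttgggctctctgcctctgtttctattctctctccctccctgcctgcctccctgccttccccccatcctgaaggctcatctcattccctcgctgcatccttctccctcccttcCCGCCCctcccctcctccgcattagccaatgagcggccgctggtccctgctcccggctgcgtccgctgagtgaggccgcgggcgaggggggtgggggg
The upstream Cacng5 promoter held 1 AP-1 match, starting at base −214 from the start, and 2 GC boxes, starting at bases −35 and −24. It held 17 CpG dinucleotides and the downstream one 5, against a median of 7 over the 32851 promoters of the table. The Cacng7 promoter held 15 CpG dinucleotides and 1 GC box, at base −48. An AP-1 match was found in 7.81% of all promoters and a GC box in 35.66%, on either strand, and the 2 motifs do not overlap here. Of the 8 member promoters, 1 held the AP-1 motif, 0 the cAMP response element TGACGTCA (1.79% of all promoters), 0 the RE1 motif part TTCAGCACC (0.37%) and 1, that of Cnih3, the E-box CACGTG (7.15%). A GC box was in 4 of the 8, those of Cacng5 (upstream start), Cacng7, Cnih2 and Cnih3. The AP-1 motif was chosen with an earlier result on Fos, an AP-1 gene, in these libraries known. A match is a stretch of letters and not a shown binding site, and the gene values do not say which Cacng5 start was used.

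Among the pore-forming subunits Gria2 was the most abundant, and the order Gria2, Gria3, Gria1, Gria4 was the same in both groups. Gria2 had 42.7, 45.7 and 40.4 FPKM in siRNA libraries 1 to 3, against 51.6, 49.6 and 49.1 FPKM in control libraries 1 to 3. On the values as deposited every siRNA library lay below every control library. The means were 42.9 ± 2.61 and 50.1 ± 1.36 FPKM (SD, n = 3 each), a log2 fold change of −0.22 (SE 0.09) on the log2(FPKM + 1) scale used throughout, which understates changes of weakly expressed genes.

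Gria1, whose subunit is known for its activity-dependent delivery to synapses, had 7.65, 7.88 and 6.39 FPKM with the siRNA, against 9.50, 10.6 and 8.62 FPKM in the controls. It too was lower in all 3 siRNA libraries than in any control, with a log2 fold change of −0.35 (SE 0.12). Relative to the median of all entries the 2 genes stood at −0.10 for Gria2 and −0.23 for Gria1. With the ribosomal RNA locus entries removed and the columns rescaled their log2 fold changes were −0.016 and −0.175. These 2 values are not relative to the median of the entries tested, which was then 0.06. Such an absence of overlap on the lower side was found for 22.1% of all entries tested, and the members with it were Gria1, Gria2 and Cacng4, 3 of 10. Nothing is read from that count, since the set was chosen on this comparison.

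Gria3, which encodes a subunit that often pairs with the Gria2 product, had 12.6, 15.4 and 14.3 FPKM with the siRNA, against 15.9, 13.5 and 16.7 FPKM in the controls. The groups overlapped, and the log2 fold change was −0.11 (SE 0.12). Gria4, known for its part in early postnatal and fast-spiking cells, had 4.70, 5.34 and 5.18 FPKM, against 6.03, 4.24 and 4.73 FPKM in the controls. The siRNA libraries lay inside the control range (log2 fold change 0.03, SE 0.13).

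**Figure D1:**
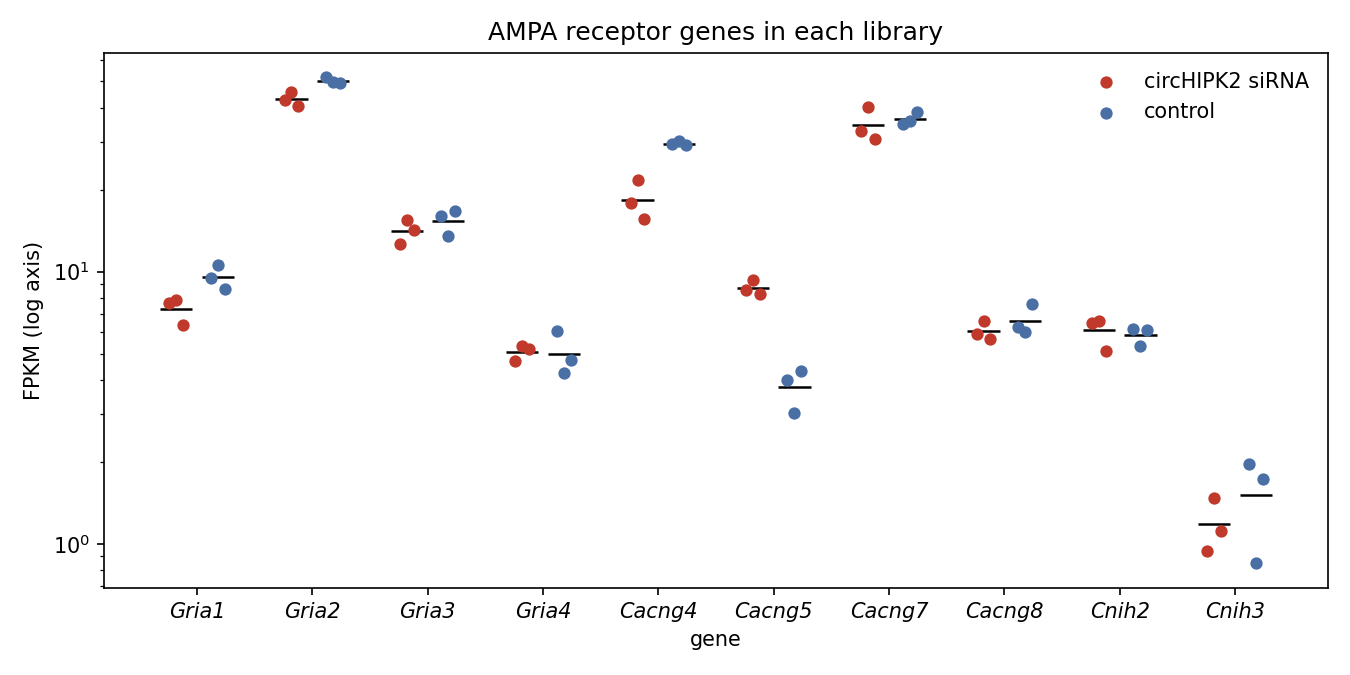
FPKM of the 10 genes (log axis) in each library, with circHIPK2 siRNA libraries in red to the left and control libraries in blue to the right of each gene; horizontal lines are group means of 3 libraries. Cacng5 lies entirely higher with the siRNA, at 8.25 to 9.33 against 3.01 to 4.31 FPKM, and Cacng4 entirely lower, at 15.6 to 21.6 against 29.1 to 30.1 FPKM.

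Among the members the widest differences between the groups were those of the TARP genes Cacng5 and Cacng4, in opposite directions. Cacng5 is the gene on which the set was chosen. Cacng5 had 8.57, 9.33 and 8.25 FPKM in siRNA libraries 1 to 3, against 4.01, 3.01 and 4.31 FPKM in control libraries 1 to 3. The lowest siRNA library was well above the highest control library. Mean levels were 8.72 ± 0.556 and 3.78 ± 0.679 FPKM (SD, n = 3 each), a 2.31-fold difference with a log2 fold change of 1.03 (SE 0.13), or 1.15 relative to the median of all entries.

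Cacng5 entered as 1 of the entries called higher by limma at a Benjamini-Hochberg adjusted p below 0.05, which were 0.117% of those tested, while 0.139% were called lower. As the call chose the set, nothing is read from it, and the other 9 members were not among the entries called. The call did not hold without siRNA library 2 or 3 (log2 fold changes 0.99 and 1.07) or with no filter on low values (1.03). All siRNA libraries lay above all controls for 2.65% of entries, as for Cacng5. Its log2 fold change ran from 0.91 to 1.32 over the 16 alternatives tried.

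Cacng4, the most abundant type I TARP gene here, had 17.9, 21.6 and 15.6 FPKM with the siRNA, against 29.4, 30.1 and 29.1 FPKM in the controls. The 3 control libraries lay within about 1 FPKM of each other, and all siRNA libraries were below them. Mean levels were 18.4 ± 3.04 and 29.5 ± 0.512 FPKM (SD, n = 3 each), 1.61-fold lower with the siRNA. The log2 fold change was −0.67 (SE 0.12), or −0.55 relative to the median of all entries, and it ran from −0.78 to −0.48 over the 16 alternatives. In the same libraries the 7 oligodendrocyte precursor markers summed to 811 to 973 FPKM, against 985 to 1046 FPKM in the controls, although only 1 of the 7, Gpr17, had no overlap between the groups. The 12 neuron markers summed to 104 to 119 FPKM with the siRNA, against 132 to 143 FPKM in the controls, and most of that sum was Map2. Of the 6 neuron markers that passed the filter, 4 lay entirely below the controls, Tubb3, Map2, Snap25 and Syp, while Dcx and Gad1 overlapped. The median log2 fold change of the 6 was −0.32. Over all entries tested, 22.1% lay entirely below the controls. The astrocyte sums, given above, overlapped. The part of these marker lists in the level of Cacng4 was not tested, and in bulk libraries fewer cells of a type and less RNA per cell cannot be told apart.

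Cacng7, the close relative of Cacng5 and the most abundant TARP gene, had 32.8, 40.3 and 30.7 FPKM with the siRNA, against 34.8, 35.6 and 38.6 FPKM in the controls. The siRNA libraries spanned the control range, and the log2 fold change was −0.08 (SE 0.12). Cacng8, a type I TARP gene best known from the hippocampus, had 5.90, 6.56 and 5.68 FPKM, against 6.23, 5.97 and 7.61 FPKM in the controls. Its groups overlapped as well (log2 fold change −0.11, SE 0.11). Of the Cacng genes outside the set, Cacng2 was listed at 0 in every library, Cacng3 was at or below 0.0273 FPKM, and Cacng1 and Cacng6, which encode calcium channel subunits, were at or below 0.0555 and 0.0993 FPKM.

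**Figure D2:**
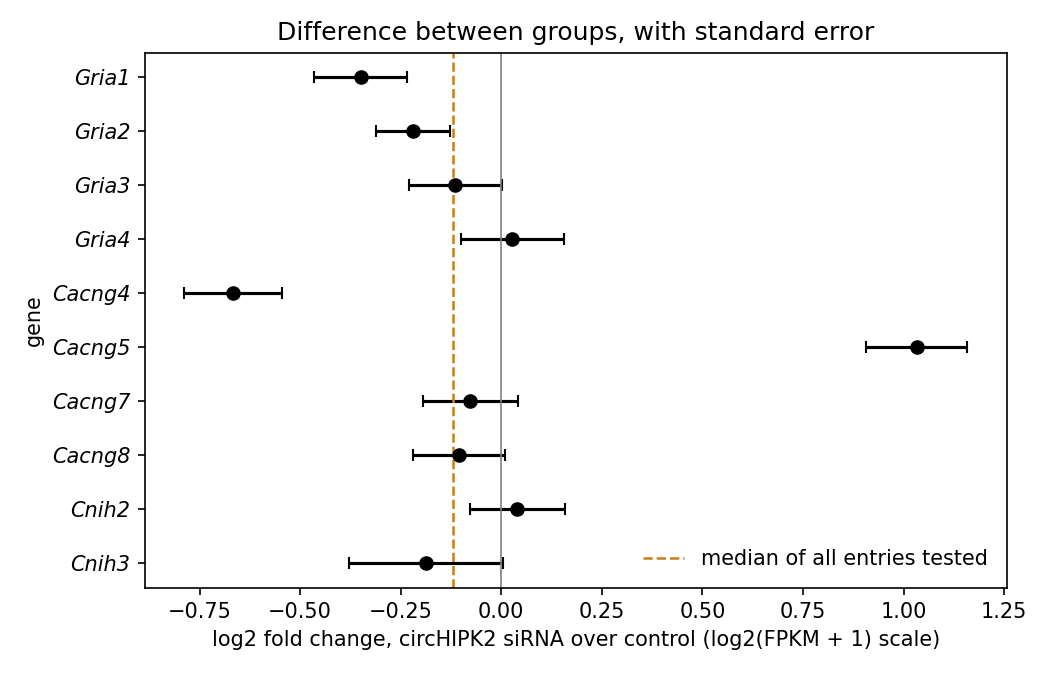
Log2 fold change of each gene, circHIPK2 siRNA over control, on the log2(FPKM + 1) scale, with bars for the standard error from limma; the dashed line is the median of the 13702 entries tested, at −0.12. Cacng5 (1.03) and Cacng4 (−0.67) stand to either side, and the other 8 genes lie between −0.35 and 0.04.

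Both cornichon genes overlapped between the groups. Cnih2 had 6.50, 6.61 and 5.13 FPKM with the siRNA, against 6.14, 5.34 and 6.10 FPKM in the controls (log2 fold change 0.04, SE 0.12). Cnih3 was the weakest member, with 0.945, 1.48 and 1.11 FPKM with the siRNA, against 1.97, 0.849 and 1.73 FPKM in the controls. Its mean lay above only 5.07% of the entries tested, and its log2 fold change was −0.19 (SE 0.19).

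Set out by level, the 10 genes kept much of their order. With the siRNA it ran Gria2, Cacng7, Cacng4, Gria3, Cacng5, Gria1, Cnih2, Cacng8, Gria4 and Cnih3. In the controls it ran Gria2, Cacng7, Cacng4, Gria3, Gria1, Cacng8, Cnih2, Gria4, Cacng5 and Cnih3. Cacng5 thus held rank 5 with the siRNA and rank 9 in the controls. With the siRNA the neighbours Gria1 and Cnih2, and Cnih2 and Cacng8, overlapped between libraries. In the controls Cacng8 and Cnih2, Cnih2 and Gria4, and Gria4 and Cacng5 overlapped. The other neighbours did not.

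Shares within a family do not depend on how a library is scaled. Cacng5 made up 13.2%, 12.0% and 13.7% of the summed TARP FPKM in siRNA libraries 1 to 3, against 5.39%, 4.04% and 5.42% in control libraries 1 to 3. Cacng4 made up 27.4%, 27.8% and 25.9% with the siRNA, against 39.5%, 40.3% and 36.5% in the controls. The share of Cacng5 was higher by 8.00 percentage points and that of Cacng4 lower, by −11.7 points.

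Cacng7 held 51.0 ± 0.712% of the TARP sum with the siRNA and 47.6 ± 0.852% in the controls (SD, n = 3 each), with every siRNA library above every control. The shares are tied, since a lower share of Cacng4 raises the others, and the FPKM of Cacng7 itself overlapped between the groups. Cacng8 held 8.97 ± 0.498% and 8.65 ± 0.814%. The ratio of Cacng4 to Cacng5 was 2.08, 2.32 and 1.89 in siRNA libraries 1 to 3, against 7.33, 9.97 and 6.74 in control libraries 1 to 3. The ratio sets the pair with the widest opposite differences against each other, so it restates them free of scaling.

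The make-up of the pore-forming family differed less. Gria2 held 63.1%, 61.5% and 61.0% of the summed Gria FPKM in the siRNA libraries, against 62.1%, 63.6% and 62.0% in the controls. The groups overlapped, as they did for the shares of Gria1 (9.64% to 11.3% with the siRNA, 10.9% to 13.6% in the controls), Gria3 and Gria4. The mean share of Gria2 was 61.9 ± 1.11% with the siRNA and 62.6 ± 0.895% in the controls (SD, n = 3 each), a difference of −0.75 points. The summed TARP FPKM was 0.962, 1.05 and 0.909 times the summed Gria FPKM with the siRNA, against 0.896, 0.958 and 1.01 times in the controls, and the groups overlapped on this ratio.

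**Figure D3:**
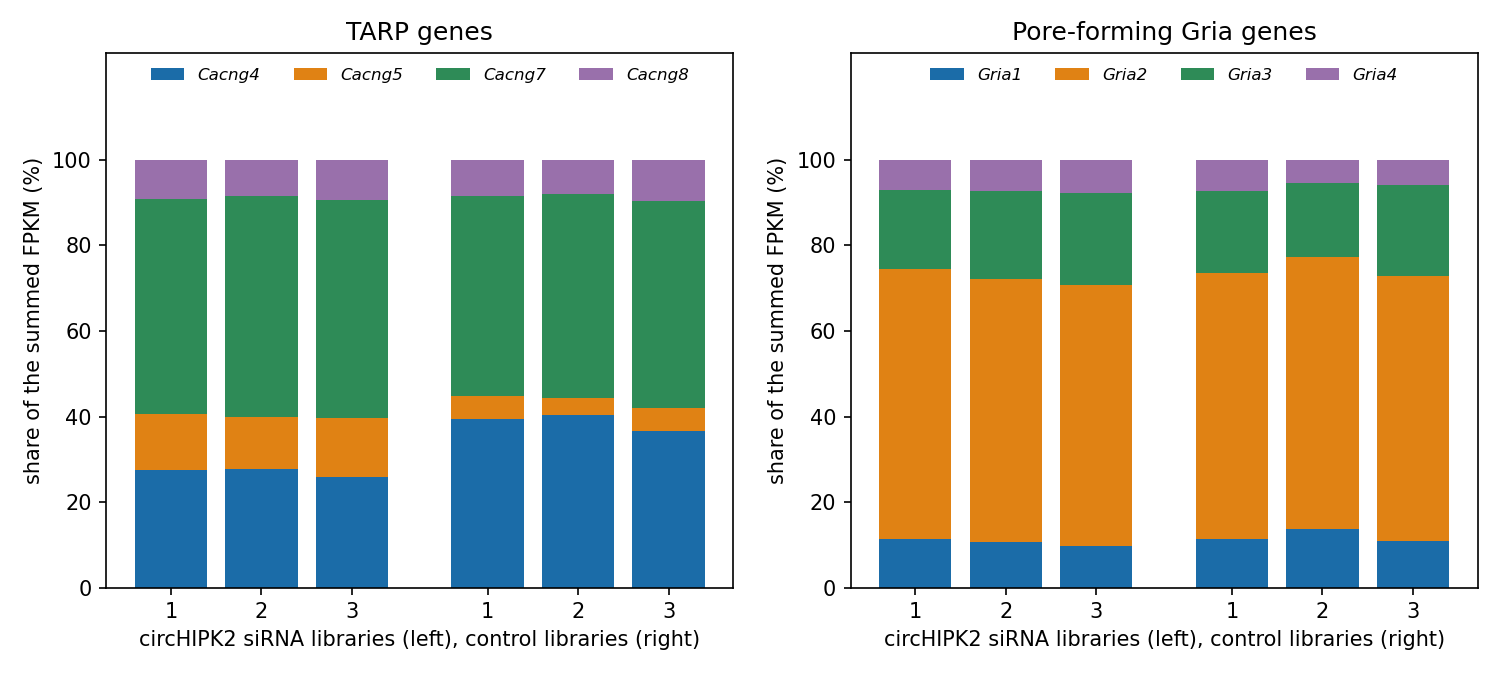
Share of each gene in the summed FPKM of the TARP genes (left panel) and of the pore-forming Gria genes (right panel), in percent, for circHIPK2 siRNA libraries 1 to 3 (left bars) and control libraries 1 to 3 (right bars). Cacng5 makes up 12.0% to 13.7% of the TARP sum with the siRNA and 4.04% to 5.42% in the controls, while the Gria shares overlap between groups.

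Cacng4 and Cacng5 are neighbours on mouse chromosome 11 in the RefSeq annotation, with Cacng1 beside Cacng4, and Cacng7 and Cacng8 are neighbours on chromosome 7. The 3 protein-coding genes on either side of the Cacng4 and Cacng5 pair were Psmd12, Helz and Cacng1, and Prkca, Apoh and Cep112. Prkca, a protein kinase C gene next to Cacng5, had 13.6 ± 0.949 FPKM with the siRNA and 13.9 ± 0.499 FPKM in the controls (log2 fold change −0.04, adjusted p = 0.834, limma with Benjamini-Hochberg adjustment). Helz, an RNA helicase gene, had 6.11 ± 0.261 and 6.42 ± 0.501 FPKM (adjusted p = 0.755, limma), and Psmd12, a proteasome subunit gene, 32.4 ± 1.44 and 35.4 ± 2.10 FPKM (adjusted p = 0.494, limma; SD, n = 3 each). These 3 did not pass the test, and Cacng1, Apoh and Cep112 were below the filter. Around Cacng7 and Cacng8 the 1 neighbour above the filter was Myadm, at 1.30 ± 0.157 FPKM with the siRNA and 1.33 ± 0.345 FPKM in the controls (adjusted p = 0.977, limma).

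**Figure D4:**
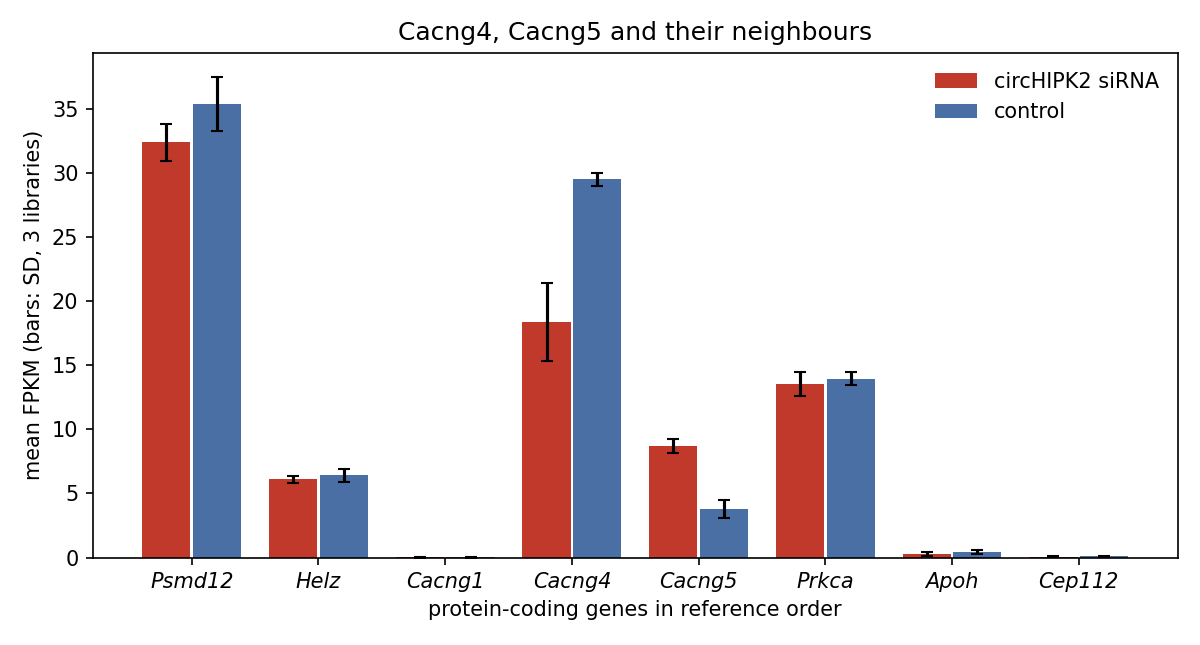
Mean FPKM of Cacng4, Cacng5 and the 3 protein-coding genes on either side, in the order of the reference annotation, for circHIPK2 siRNA (red, left) and control (blue, right); error bars are the SD of 3 libraries. The tall neighbours Psmd12 and Prkca differ little between groups, at 32.4 against 35.4 and 13.6 against 13.9 FPKM.

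The wider pathway was followed in 75 other genes for receptor assembly, scaffolds, other glutamate receptors and RNA editing, of which 51 passed the filter. None was called in either direction (limma with Benjamini-Hochberg adjustment), against 0.255% of all entries. At an unadjusted p below 0.05, 1 was higher, Prrt1, and 14 were lower, where over all entries 251 were higher and 2117 lower. The median log2 fold change of the 51 was −0.20, against −0.12 over all entries, and 34 lay below that median. Of the 51, 17 had all siRNA libraries below all controls, where 22.1% of all entries did, and 0 had them all above.

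Of 16 tested assembly and auxiliary genes, the most abundant, Olfm2, a secreted olfactomedin that binds AMPA receptors, had 55.3, 69.6 and 61.0 FPKM with the siRNA, against 70.2, 76.1 and 75.4 FPKM in the controls (adjusted p = 0.284, limma). Prrt1, which encodes an AMPA receptor-associated membrane protein and is named as the 1 higher gene, had 5.35, 3.66 and 6.26 FPKM, against 4.07, 2.73 and 3.29 FPKM in the controls, with overlap (adjusted p = 0.253, limma). Of 22 scaffold and trafficking genes the most abundant was Camk2b, a subunit of the kinase that phosphorylates AMPA receptors and TARPs. It had 91.1, 106 and 109 FPKM with the siRNA, against 101, 107 and 62.3 FPKM in the controls, where library 3 was the low one (adjusted p = 0.579, limma). Of these 22 genes 7 were lower at an unadjusted p below 0.05 (limma), as were 2117 of all 13702 entries tested. Entirely below the controls lay 7 of the 22, where 22.1% of all entries did. Camk2a, another subunit gene of that kinase, picked here once its values were known, had 1.63, 2.08 and 1.50 FPKM, against 2.81, 3.55 and 2.89 FPKM in the controls (adjusted p = 0.135, limma).

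All 9 tested genes of the other ionotropic receptors lay below the median of all entries, with a list median of −0.30, and 6 had all siRNA libraries below all controls, where 22.1% of all entries did. Grik5, a kainate receptor subunit gene and the most abundant, had 24.8, 27.3 and 20.4 FPKM with the siRNA, against 28.1, 24.4 and 26.7 FPKM in the controls (adjusted p = 0.58, limma). Grin3a, an NMDA receptor subunit gene picked here once its values were known, had 5.55, 6.36 and 5.29 FPKM, against 9.31, 9.03 and 8.26 FPKM in the controls. It lay entirely lower with the siRNA and had the lowest adjusted p of the 51 genes, 0.106 by limma, with a log2 fold change of −0.55 (SE 0.10).

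Of 8 metabotropic receptor genes 2 passed the filter. Grm5, which signals through phospholipase C, had 37.0, 50.7 and 47.3 FPKM with the siRNA, against 41.5, 36.9 and 47.0 FPKM in the controls, with overlap (adjusted p = 0.721, limma). Grm3, the other, had 11.4, 11.4 and 8.46 FPKM, against 15.0, 15.0 and 14.9 FPKM in the controls. It lay entirely lower with the siRNA but did not pass (log2 fold change −0.49, adjusted p = 0.159, limma). Among the editing enzymes Adar had 10.6, 12.4 and 8.99 FPKM, against 10.8, 9.04 and 9.72 FPKM in the controls (adjusted p = 0.688, limma). Adarb1, named because its enzyme edits the Gria2 Q/R site, had 1.69, 2.51 and 2.17 FPKM, against 3.04, 2.37 and 2.31 FPKM in the controls (adjusted p = 0.463, limma). The groups overlapped for both editing genes, and the editing of the Gria2 transcript itself cannot be read from FPKM.

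The named genes whose pattern over the 6 libraries was most like that of Cacng5, by Pearson correlation of log2(FPKM + 1), were Nfkb2 (r = 0.985), Pan3 (0.978), Gpnmb (0.978), Egr1 (0.978) and Apobec3 (0.977). The 6 libraries fall into 2 groups of 3, so these values mainly state that the genes also differ between the groups. Nfkb2, an NF-kB subunit gene, was at 6.81 ± 0.126 FPKM with the siRNA and 4.85 ± 0.439 FPKM in the controls, and Egr1, an immediate early transcription factor gene, at 72.2 ± 4.13 and 50.8 ± 5.74 FPKM (SD, n = 3 each). None of these 5 was called (adjusted p from 0.106 to 0.205, limma with Benjamini-Hochberg adjustment). By deviations from the group means, which leave out the difference between groups, the most alike were a different 5 genes, Kif20a, Bcl7b, Fzd10, Pusl1 and Zfp7 (r from 0.996 to 0.999 over 6 libraries). Taking out the group means leaves fewer free values than libraries, and these 5 were picked as the highest of all named entries. Nothing is read from them.

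**Figure D5:**
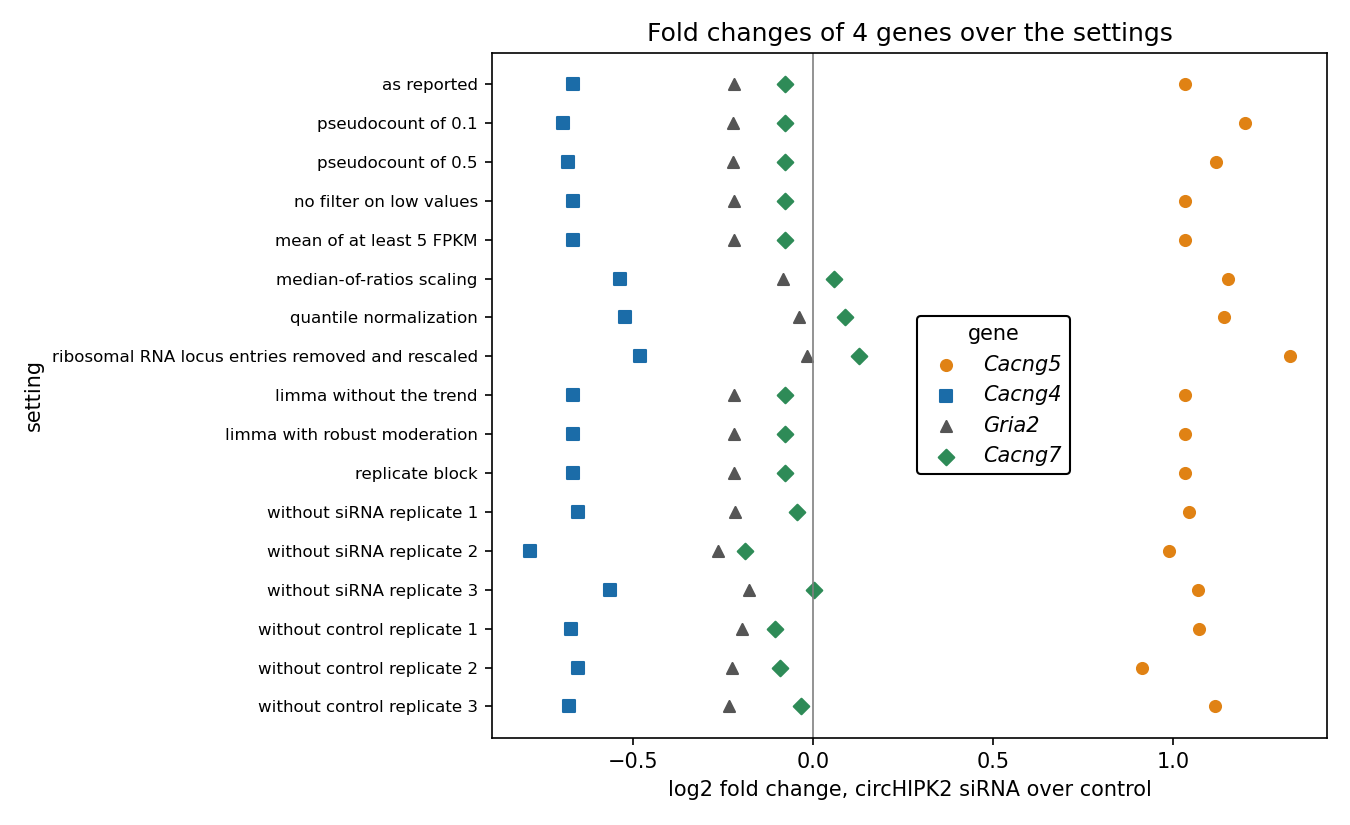
Log2 fold change, circHIPK2 siRNA over control, of Cacng5, Cacng4, Gria2 and Cacng7 as reported and under each of the 16 alternatives, 1 row per setting. Cacng5 stays between 0.91 and 1.32 and Cacng4 between −0.78 and −0.48, while Cacng7 changes sign. Gria2 comes near 0 (−0.02) once the ribosomal RNA locus entries are removed and the columns rescaled. In that setting the median of the entries tested is 0.06.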

How the data were processed

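The authors deposited 1 table of FPKM values per gene symbol for 6 libraries, and the tools named in the submitters' processing notes are HISAT, StringTie and edgeR, on mm9. Their versions, the annotation and the use of strand are not stated there. Per the labels' protocols the libraries were poly(A)-selected, strand-marked with dUTP and sequenced from both ends. Raw counts were not used here. Read from the steps of low FPKM values of genes with 1 transcript, relative depth was 1.00 to 1.14 in the siRNA libraries and 1.08 to 1.19 in the controls, with 39.5% to 42.0% of those values within 0.05 of a whole step (10% by chance). The absolute depth is unknown, so no counting interval is given.

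FPKM were used as deposited, with 1 added before log2, for entries averaging 1 FPKM or more, which all 10 members passed. Groups were compared across all 13702 entries with limma 3.58.1 in R 4.3.3 (two-sided, mean-variance trend, Benjamini-Hochberg adjustment), called at an adjusted p below 0.05 and tested on simulated data. The members and gene lists were chosen with earlier results of these data known. From each related list up to 2 called genes per direction, or otherwise the most abundant, are named; Prrt1, Camk2a, Grin3a, Grm3 and Adarb1 fall outside this rule and were added with their values known. Promoters are RefSeq sequences on GRCm38.p6, a later build than mm9, from which only promoter positions and gene order were taken. The values of Cacng7 and Cacng8 carried 7 decimals and 393 entries in all carried more than the usual 6, for a reason not given in the sources used here.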

Additional observations from a re-analysis of the deposited data

How the results depend on the processing

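The 16 genes called higher and 19 called lower became 10 higher with no filter, 8 lower with a mean of at least 5 FPKM and 8 higher with robust moderation. Leaving out 1 library at a time gave 2 to 15 higher and 6 to 23 lower, lowest in both directions without siRNA library 3. The related glutamate receptor lists gave 0 calls in each of the 16 alternatives. The cause was not tested, except that no filter adjusts over 54884 entries.

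Deviations from the group means of same-numbered libraries correlated at 0.046, 0.015 and 0.133. Differently numbered libraries were not compared, so whether the replicate numbers pair the libraries is not settled. With the replicate block 23 genes were called higher and 23 lower, and the log2 fold change of Cacng5 was 1.03. Median-of-ratios scaling, quantile normalization and removal of the ribosomal RNA locus entries with rescaling moved the median of all entries to −0.00096, −0.00031 and 0.06, and under each Gria3, Cacng7 and Cacng8 changed sign. Gria4, Cnih2 or Cacng7 changed sign in 4 of the 6 fits without 1 library. Fold changes of Cacng4, Gria1 and Gria2 stayed negative throughout. With that removal and rescaling Gria1 was −0.175 and Gria2 −0.016, where the median of the entries tested was 0.06. Cnih3, near 1 FPKM, and the Cacng genes listed near 0 rest on low values, and the part of depth in their spread was not tested.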
